A study of Mus musculus with 24 samples.

Results

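The axon guidance ligands and receptors of the mouse were compared between retinoic acid differentiated CCE embryonic stem cells and fetal head (FH). Members were the GENCODE M1 protein-coding genes named as semaphorins (Sema), plexins (Plxn), neuropilins (Nrp), Slits, Robos, netrins (Ntn), Unc5 receptors, Dcc, ephrins (Efna, Efnb) and Eph receptors (Epha, Ephb), without the Slitrk genes. Of 22380 protein-coding genes 72 entries had such a name. Unc50 shares only the letters of the Unc5 receptors, Unc5cl is a relative of them without the part outside the cell that binds netrins, and a second Efna5 entry lies inside the exons of the first, so that 69 guidance genes were left, 35 ligands and 34 receptors.

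Guidance cues are secreted or membrane-bound proteins that attract or repel the growth cone at the tip of a growing axon. Netrins attract through Dcc and repel through Unc5 receptors, Slits repel through Robos, and semaphorins signal through plexins, for most secreted class 3 semaphorins with a neuropilin as the binding partner. Ephrins are bound to the membrane, ephrin-A by a lipid anchor and ephrin-B by a transmembrane segment, and act through Eph receptor tyrosine kinases on touching cells. The same proteins are used outside the nervous system, in vessels, epithelia and cell sorting in the early embryo.

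CCE is a single feeder-independent embryonic stem cell line of strain 129/SvEv that was differentiated for 5 days without LIF in 0.266 µM retinoic acid. FH was dissected from wild-type FVB/N embryos at 14.5 dpc and mixes brain with skin, muscle, bone precursors, vessels and blood. The groups therefore differ in strain as well as in tissue. RNA was depleted of ribosomal RNA and read as short sequence tags without strand, from 7 RiboMinus cDNA preparations (4 of CCE, 3 of FH), each sequenced at Vienna-IMP and at Nijmegen, and from 1 Ribo-Zero library per tissue made from separate RNA. Of the RiboMinus preparations 2 of CCE and 1 of FH were sheared as cDNA and 2 of each tissue were hydrolysed as RNA, and 1 hydrolysed FH preparation had 2 rounds of depletion. Both fragmentation methods were applied to the same depleted RNA, so that the 4 CCE preparations come from 2 depletions, which are technical replicates, and the 3 FH preparations also from 2. No separate animals are stated for FH. Each n therefore counts preparations that share RNA, and p-values measure only the spread between them.

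The RiboMinus preparations held 2705085 to 3992090 unique tags in CCE and 1888761 to 4322418 in FH, and the Ribo-Zero libraries held 28708715 and 48426051. Exons of protein-coding genes took 64.0% to 71.1% of the tags in the CCE and 43.7% to 60.1% in the FH RiboMinus libraries. In the Ribo-Zero libraries they took 60.8% in CCE and 42.5% in FH. All 5 neuron markers measured were higher in FH, with a summed level of 28.3 to 34.1 RPKM in CCE and 327 to 592 RPKM in FH (RPKM, tags scaled by exon length and by all unique tags of the library), and so were all 4 tested neural progenitor markers, of which Hes5 and Fabp7 had no tag in CCE RiboMinus preparations. These calls and those of the next lists are from RiboMinus, and in Ribo-Zero the progenitor marker Sox2 was lower in FH, at 42.7 RPKM in CCE and 21.4 RPKM in FH. Of 8 primitive endoderm markers 7 were lower in FH, and Gata4 had no tag in the FH RiboMinus preparations. Markers of connective tissue (4 of 5), endothelium (4 of 4), erythroid cells (4 of 4), skeletal muscle (4 of 4) and stratified epithelium (3 of 3) were also higher in FH, while Pou5f1 and Zfp42 of the 3 pluripotency markers, all lower, had no FH RiboMinus tag. These lists move with the tissue and their part in the differences given here was not tested. In bulk RNA, fewer cells of a type and less RNA per cell cannot be told apart.

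Most guidance genes that differed were higher in FH, and those that were lower included Unc5b and Epha2, the receptors of highest mean RPKM in the CCE RiboMinus preparations. Of the 69 genes 64 had a mean level of at least 1 RPKM over both tissues and were tested. In FH 35 of them (54.7%) were higher and 11 (17.2%) lower, with limma on log2(RPKM + 1) and a Benjamini-Hochberg adjusted p under 0.05, where 20.6% of all 12581 genes tested were higher and 30.3% lower. A gene near 0 in 1 tissue can pass the limit of 1 RPKM through the other tissue. For members that passed it through FH this selection favours a rise. Of the 69 genes 18 were under 1 RPKM in every CCE preparation and 3 in every FH preparation. The median log2 difference, FH minus CCE, was 1.02 for the members and -0.24 for all genes, on a scale that understates the change of genes near 0. With Vienna-IMP libraries alone 36 members were higher and 9 lower, and with Nijmegen libraries alone 31 and 9. The shares of all genes called with the libraries of 1 location are not given, so these counts have no background beside them. With hydrolysed preparations alone, 1 for each depleted RNA, 40 members were higher and 12 lower, where 25.8% and 44.8% of all genes were. With a term for fragmentation in the fit the counts were 40 and 13, against 26.0% and 43.7% of all genes. Scaled by exon tags in place of all unique tags, which moved the median of all genes to 0.06, 40 members were higher and 7 lower, and 60.2% instead of 40.4% of all calls were higher. With median-of-ratios factors the counts were 36 and 7 and that share 53.6%. The members higher in FH were 16 ligands and 19 receptors, and those lower were 6 ligands and 5 receptors. A mean over 3 RPKM was reached by 36 members in both tissues, by 20 in FH alone, by Epha1 and Sema3b in CCE alone and by 11 in neither.

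**Figure D1:**
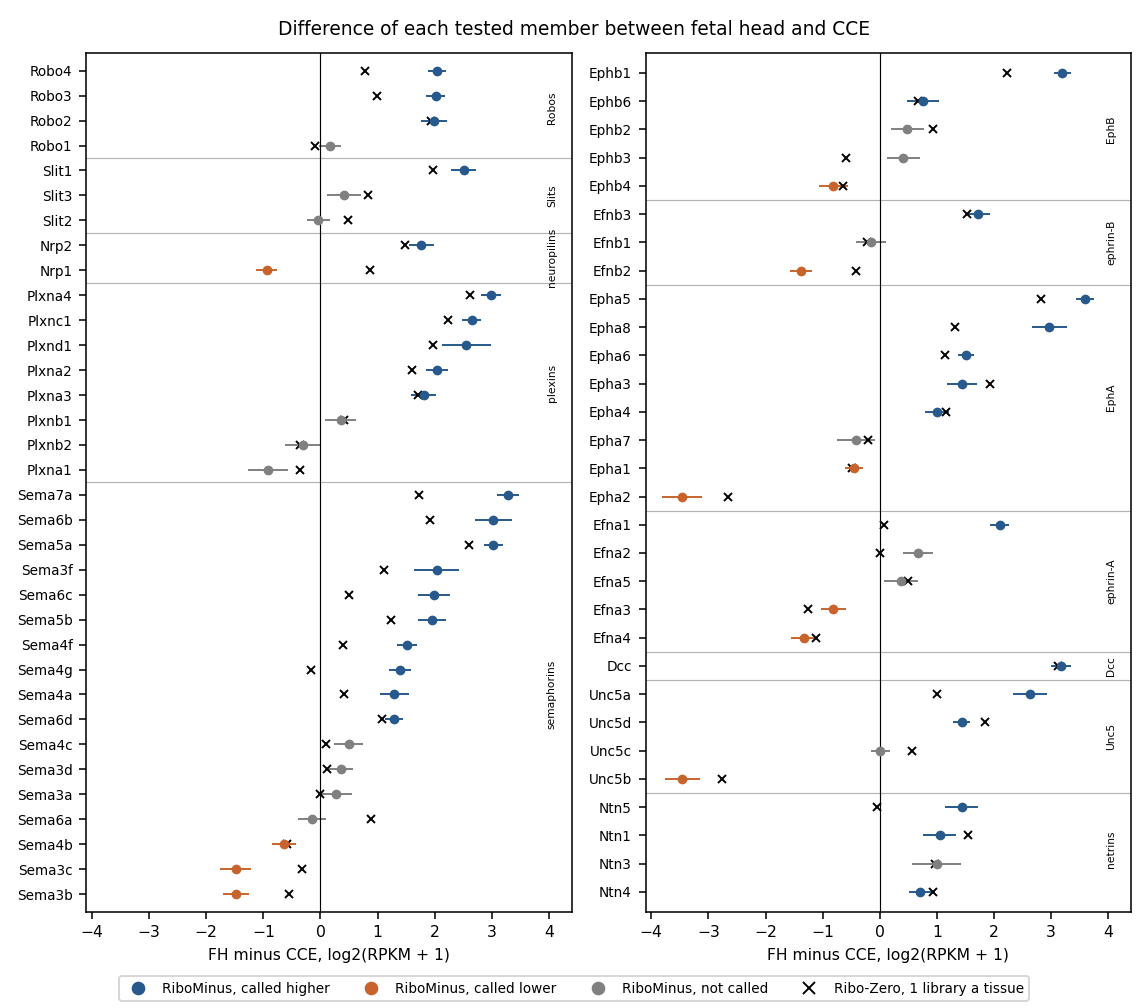
Log2 difference between fetal head and CCE of the 64 tested members, grouped by class, on the log2(RPKM + 1) scale. Circles with bars are the RiboMinus estimate and its SE (4 CCE and 3 FH preparations) and crosses the Ribo-Zero difference from 1 library a tissue. Unc5b and Epha2 lie farthest to the left at -3.46 and Epha5 farthest to the right at 3.59.

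Of the netrin receptors Unc5b, a repulsive netrin receptor also known from blood vessels, was the dominant member in CCE cells, and in FH the family was shared between Dcc and all Unc5 genes. Unc5b had 71.4 and 99.7 RPKM in the sheared and 51.5 and 45.5 RPKM in the hydrolysed CCE preparations, against 7.06 RPKM in the sheared and 3.96 and 4.19 RPKM in the hydrolysed FH preparations. Every FH value was below every CCE value, and sheared cDNA gave the higher values within both tissues. The log2 difference was -3.46 ± 0.30 (SE, limma adjusted p = 2.1e-05), a mean of 67.0 ± 24 RPKM (SD, n = 4) against 5.07 ± 1.7 RPKM (SD, n = 3). In the Ribo-Zero libraries Unc5b had 32.7 RPKM in CCE and 4.00 RPKM in FH, a ratio of FH to CCE of 0.122 with an exact 95% interval of 0.115 to 0.130 that covers counting error only.

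Dcc, the attractive netrin receptor, went the other way. It had 0, 0.0917, 0.124 and 0.147 RPKM in the CCE preparations, 10 tags in all, and 7.09, 9.49 and 10.1 RPKM in FH, 742 tags. The log2 difference was 3.17 ± 0.17 (SE, limma adjusted p = 1.5e-06) and the Ribo-Zero ratio 69.8 (48.5 to 104). Unc5c did not differ beyond its spread in RiboMinus, with 5.17 to 6.15 RPKM in CCE and 4.96 to 6.46 RPKM in FH and a log2 difference of 0.01 ± 0.16 (limma adjusted p = 0.98), and had a Ribo-Zero ratio of 1.60 (1.51 to 1.71). Unc5a and Unc5d, named here after their values were seen, rose from means of 0.287 and 0.115 RPKM to 7.48 and 2.02 RPKM (log2 differences 2.63 and 1.43). Unc5b thus made up 90.8% ± 3.1 (SD, n = 4) of the summed RPKM of Unc5 and Dcc genes in CCE and 17% ± 3.6 (SD, n = 3) in FH, where Dcc held 31.1% ± 8.6, Unc5a 24.7% ± 11 and Unc5c 20.2% ± 4.7. The Ribo-Zero shares of Unc5b were 88.6% and 17.3%, and in the Ribo-Zero FH library Dcc held 37.8% and Unc5c 27.2%. Unc5a held only 5.30% there, at 1.22 RPKM, less than Unc5d with 12.4%.

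Of the 4 netrins 3 were higher in FH and none lower. Ntn1, the founding netrin, had 2.43, 2.60, 3.73 and 4.89 RPKM in CCE and 6.18, 6.38 and 12.3 RPKM in FH, without overlap (log2 difference 1.05 ± 0.28, limma adjusted p = 0.014), and the Ribo-Zero ratio was 3.45 (3.17 to 3.76). Its call was lost with Nijmegen libraries alone and with coding parts of exons alone. Ntn3 had the highest RPKM of the netrins in RiboMinus, while in Ribo-Zero Ntn1 was higher in both tissues. In the sheared preparations Ntn3 had 21.6 and 22.9 RPKM in CCE and 50.6 RPKM in FH, and in the hydrolysed ones 9.32 and 8.44 RPKM in CCE and 20.5 and 23.7 RPKM in FH. The tissues overlapped over all preparations, without a call (log2 difference 0.99, limma adjusted p = 0.082), but not within either method. With a fragmentation term Ntn3 passed the test (1.19, limma adjusted p = 1.2e-05), and its Ribo-Zero ratio was 2.26 (2.04 to 2.51). Ntn4 and Ntn5 rose by 0.70 and 1.43 from under 1.2 RPKM in every CCE preparation. Ntn5 rested on 4 RiboMinus tags in CCE and 32 in FH. In FH it had 1.03 and 1.91 RPKM in the hydrolysed and 4.37 RPKM in the sheared preparations, and 1167 of its 1574 exon bases belong to no other gene. The call of Ntn4 was lost with Vienna-IMP libraries alone (0.50, adjusted p = 0.13), with Nijmegen libraries alone (0.84, adjusted p = 0.066) and with coding parts of exons alone, and that of Ntn5 with Nijmegen libraries alone. Ntn5 had nearly the same level in both Ribo-Zero libraries, at 0.465 RPKM in CCE and 0.420 RPKM in FH.

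Of the EphA receptors the CCE RiboMinus preparations had mainly Epha2, a receptor of epithelial cells and of the early embryo, and those of FH had a mixture of Epha3, Epha5, Epha4 and Epha8, which are known from the developing brain. Epha2 had 63.9 and 79.6 RPKM in the sheared and 34.5 and 34.3 RPKM in the hydrolysed CCE preparations, and 5.78, 2.71 and 2.87 RPKM in FH. The groups were far apart (log2 difference -3.46 ± 0.35, limma adjusted p = 5.5e-05), and in the Ribo-Zero libraries the values were 15.5 and 1.63 RPKM, a ratio of 0.105 (0.0940 to 0.118). Epha5 showed the largest rise of all members. It had a single tag in the 4 CCE preparations and 9.45, 11.9 and 12.2 RPKM in FH (1151 tags), a log2 difference of 3.59 ± 0.15 (limma adjusted p = 6.2e-07), and 2 and 2982 tags in the Ribo-Zero libraries, a ratio of 884 with an interval of 244 to 7302.

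Epha3 had 3.72 to 5.93 RPKM in CCE and 9.54, 18.5 and 18.9 RPKM in FH, where the sheared preparation was lowest (log2 difference 1.43 ± 0.26, limma adjusted p = 0.0018). The other EphA genes that rose were Epha4, Epha6 and Epha8, with log2 differences of 1.00, 1.51 and 2.97. For Epha8 the sheared FH preparation, at 14.8 RPKM, was 2.54 times the higher hydrolysed one, the widest such gap among the members. Epha1 fell by 0.46, but this call was lost in 16 of 23 alternatives, and Epha7 did not pass the test (-0.41, adjusted p = 0.32). Epha2 held 72.3% ± 11 (SD, n = 4) of the EphA RPKM in CCE and 6.65% ± 3.4 (SD, n = 3) in FH, and 36.7% and 2.50% in the Ribo-Zero libraries. In the CCE Ribo-Zero library Epha4 held 26.5%, Epha7 19.8% and Epha3 10.2%. In the FH Ribo-Zero library Epha4 held 40.0%, Epha3 29.3%, Epha7 11.0% and Epha5 9.40%, and Epha8 held 2.58%, at 1.68 RPKM, against 15.4% ± 10 in RiboMinus. The summed EphA level was 80.0 and 94.9 RPKM in the sheared CCE preparations and 54.7 RPKM in the sheared FH preparation, and 54.5 and 55.1 RPKM against 59.5 RPKM in both FH preparations among the hydrolysed ones. It was thus lower in FH with one method and slightly higher with the other, and in Ribo-Zero it was 42.3 RPKM in CCE and 65.3 RPKM in FH.

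Among the ephrin-A ligands Efna4 and Efna2 had the highest RiboMinus levels. Efna4 had 24.9 to 44.6 RPKM in CCE and 10.9 to 14.9 RPKM in FH, without overlap (log2 difference -1.33 ± 0.23, limma adjusted p = 0.0012), and a Ribo-Zero ratio of 0.424 (0.376 to 0.479). Efna2 had 12.3 to 20.6 RPKM in CCE and 20.6 to 34.8 RPKM in FH and just missed the threshold (0.67 ± 0.26, adjusted p = 0.054). It passed with a fragmentation term (0.77, adjusted p = 0.00019) and in 8 of 23 alternatives in all, and its Ribo-Zero levels were 4.69 and 4.70 RPKM. Efna3, next to Efna4 on chromosome 3, fell by 0.82, a call lost under both other scalings (adjusted p = 0.080 and 0.081), with coding parts of exons alone and without FH2 hydrolysed. Efna5 did not pass the test (0.38, adjusted p = 0.32). Efna1, the first known ephrin and a partner of Epha2, had the opposite course to that receptor, with 1.82 to 2.43 RPKM in CCE and 11.3, 12.1 and 13.4 RPKM in FH (log2 difference 2.10). In the Ribo-Zero libraries Efna1 had 3.56 and 3.80 RPKM, a ratio of 1.07 (0.891 to 1.28), so that its rise was not seen there when scaled by all unique tags.

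**Figure D2:**
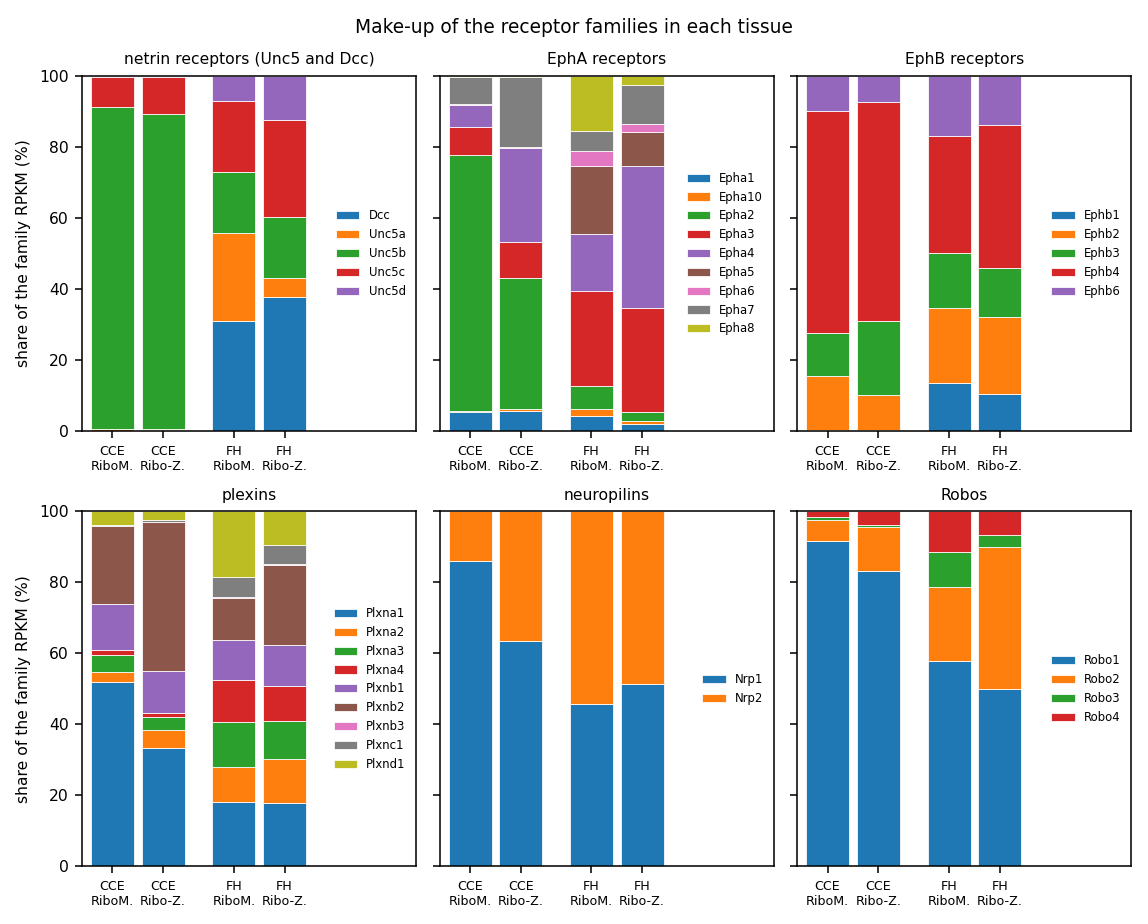
Share of each member in the summed RPKM of its receptor family, as the mean over 4 CCE or 3 FH RiboMinus preparations and for 1 Ribo-Zero library per tissue. Unc5b, Epha2 and Robo1 fill most of their RiboMinus bars in CCE (90.8%, 72.3% and 91.7%) and less in FH (17%, 6.65% and 57.9%).

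The sequence before the start of the 2 receptors that fell most, Unc5b and Epha2, and of the Eph receptors that rose most, Epha5 and Ephb1, is shown because these 4 genes changed in both exon and intron tags. Epha5 and Ephb1 had only 3 and 29 intron tags in CCE. They reached the minimum of the intron test, given below, through FH, a selection that favours a rise. The 250 bases before the RefSeq start are given 5′ to 3′ on the gene's strand in build GRCm38.p6, for Unc5b at chr10:60831582-60831831 (minus), Epha2 at chr4:141300971-141301220 (plus), Epha5 at chr5:84417383-84417632 (minus) and Ephb1 at chr9:102354694-102354943 (minus). Capitals mark the GC box GGGCGG on either strand, the core of the site of Sp family factors.
Unc5b: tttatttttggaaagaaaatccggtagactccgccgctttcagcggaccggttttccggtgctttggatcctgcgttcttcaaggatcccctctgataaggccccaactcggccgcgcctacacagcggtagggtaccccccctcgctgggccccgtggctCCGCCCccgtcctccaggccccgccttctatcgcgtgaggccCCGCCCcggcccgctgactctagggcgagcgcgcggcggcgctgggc
Epha2: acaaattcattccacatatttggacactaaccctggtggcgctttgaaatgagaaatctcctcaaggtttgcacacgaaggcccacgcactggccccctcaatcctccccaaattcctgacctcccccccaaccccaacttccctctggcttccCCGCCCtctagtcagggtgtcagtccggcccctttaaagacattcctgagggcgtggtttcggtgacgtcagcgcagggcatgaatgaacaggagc
Epha5: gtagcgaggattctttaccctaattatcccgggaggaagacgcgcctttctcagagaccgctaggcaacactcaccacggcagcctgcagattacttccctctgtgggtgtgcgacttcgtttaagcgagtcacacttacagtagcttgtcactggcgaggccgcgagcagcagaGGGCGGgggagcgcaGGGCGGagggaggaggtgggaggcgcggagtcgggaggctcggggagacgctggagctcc
Ephb1: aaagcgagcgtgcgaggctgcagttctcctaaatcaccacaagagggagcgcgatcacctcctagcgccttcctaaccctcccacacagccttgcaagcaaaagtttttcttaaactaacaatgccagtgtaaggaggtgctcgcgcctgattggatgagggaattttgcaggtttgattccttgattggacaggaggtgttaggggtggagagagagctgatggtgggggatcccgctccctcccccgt
Unc5b and Epha5 have 2 GC boxes each, Epha2 has 1 and Ephb1 none, and the windows hold 27, 20, 9 and 10 CpG. The TATA box TATAAA was in none of the 4 windows, and the nuclear receptor half-site AGGTCA was found once, in Epha2. RefSeq gave 75 promoters for 59 of the 69 members. A GC box was in 53 of these (70.7%), in 58.9% of the 11304 promoters of the genes tested and in 32.7% of all 32851 promoters, and the half-site was in 14.7%, 10.1% and 14%. TATAAA was in 2 member promoters (2.67%), 1 of them of Efnb2, in 6.20% of those of the genes tested and in 12.4% of all. The median number of CpG in the window was 15 for members higher in FH, 19.5 for those lower, 20 for those without a call, 16 for the genes tested and 6 for all promoters. A match is a description of the letters and not of a bound site.

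Among EphB receptors and ephrin-B ligands Ephb4 and Efnb2 were lower in FH, and Ephb1, Ephb6 and Efnb3 were higher. Efnb2, the ephrin-B of arteries and a ligand of Ephb4, had 60.4, 55.2, 63.4 and 75.9 RPKM in CCE and 20.7, 29.1 and 22.3 RPKM in FH (log2 difference -1.37 ± 0.19, limma adjusted p = 0.00039). In the Ribo-Zero libraries its level was 10.3 RPKM in CCE and 7.43 RPKM in FH, a smaller difference with a ratio of 0.721 (0.672 to 0.774). Ephb4 had the highest level of the EphB genes, 30.7 to 54.0 RPKM in CCE and 18.1, 20.3 and 30.5 RPKM in FH. The highest FH value was just below the lowest CCE value, and the fall was 0.81 ± 0.25 (limma adjusted p = 0.025). This call was lost in 7 of 23 alternatives. They were those without either sheared CCE or either hydrolysed FH preparation (adjusted p 0.050 to 0.099), both other scalings (0.14 and 0.15) and Nijmegen libraries alone.

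Ephb1, which guides retinal axons at the optic chiasm, had 0 to 0.137 RPKM in CCE and 8.38, 9.06 and 9.56 RPKM in FH (log2 difference 3.20 ± 0.15, limma adjusted p = 7.9e-07). Its Ribo-Zero ratio was 32.0 (21.6 to 49.6). Ephb2 had 7.40 to 15.5 RPKM in CCE and 11.3 to 21.3 RPKM in FH and did not pass the test (0.48, adjusted p = 0.20), nor did Ephb3 (0.41, adjusted p = 0.27). In Ribo-Zero Ephb2 had a ratio of 2.12 (2.00 to 2.24), and Ephb3 one of 0.630 (0.588 to 0.674), with the opposite sign to RiboMinus. Ephb6, a member without kinase activity, rose by 0.76 with overlapping groups (adjusted p = 0.047), a call lost in 10 of 23 alternatives. Efnb1 had 23.8 to 43.2 RPKM in CCE and 19.8 to 32.8 RPKM in FH without a call (-0.16, adjusted p = 0.64), and Efnb3 rose by 1.72, from 3.13 ± 0.56 to 12.8 ± 3.6 RPKM, with a Ribo-Zero ratio of 3.34 (2.99 to 3.73).

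Of 20 semaphorins 17 were tested, 10 were higher in FH, 3 were lower and 4 did not pass the test. Those that fell were the secreted Sema3b and Sema3c and the membrane-bound Sema4b, and of those that rose only Sema3f is secreted. Sema3c, a secreted semaphorin of the heart outflow tract and of axons, had 28.7, 25.2, 28.3 and 16.2 RPKM in CCE and 9.84, 5.19 and 9.62 RPKM in FH (log2 difference -1.48 ± 0.28, limma adjusted p = 0.0019). Sema3b had 7.55 to 11.8 RPKM in CCE and 1.90 to 3.74 RPKM in FH (-1.49 ± 0.23, limma adjusted p = 0.00067). Neither group pair overlapped. In the Ribo-Zero libraries both differences were smaller, with ratios of 0.778 (0.737 to 0.822) for Sema3c and 0.587 (0.511 to 0.674) for Sema3b. Sema4b fell by 0.64, and its call was lost in 7 of 23 alternatives.

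Sema7a, the only semaphorin with a lipid anchor, had 0.456, 0.508, 0.270 and 1.01 RPKM in CCE and 14.6, 14.5 and 12.8 RPKM in FH (log2 difference 3.28 ± 0.19, limma adjusted p = 2.6e-06). Sema6b had 0.747 to 2.23 RPKM in CCE and 13.3, 15 and 31.2 RPKM in FH, the sheared FH preparation being highest (3.03 ± 0.32, limma adjusted p = 7.0e-05). Both also rose in the Ribo-Zero libraries, with ratios of 6.83 (5.26 to 9.00) and 6.01 (5.05 to 7.21). Sema6c had the highest FH level of the class in RiboMinus together with Sema3f, 19.7, 22.3 and 35.1 RPKM after 3.50 to 7.79 RPKM in CCE (1.98 ± 0.28, limma adjusted p = 0.00040). In the Ribo-Zero libraries its ratio was 1.53 (1.40 to 1.68), and in FH its 5.88 RPKM was below Sema3c, the highest there with 8.63 RPKM. The other rises, in Sema3f, Sema4a, Sema4f, Sema4g, Sema5a, Sema5b and Sema6d, ran from 1.29 to 3.03 on the log2 scale. That of Sema4g was not seen in Ribo-Zero scaled by all unique tags, where it had 3.37 RPKM in CCE and 2.90 RPKM in FH. Sema3a, the classical repellent of sensory axons, did not pass the test, with 1.23 to 3.23 RPKM in CCE and 1.99 to 3.46 RPKM in FH, and had 5.12 and 5.08 RPKM in the Ribo-Zero libraries.

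In the RiboMinus preparations the semaphorin receptors of highest level in CCE did not rise, and 5 of the remaining plexins and Nrp2 were higher in FH. Plxna1, which pairs with neuropilins to bind class 3 semaphorins, had 42.5, 49.1, 34.1 and 85.6 RPKM in CCE and 19.2, 40.8 and 22.1 RPKM in FH. The groups overlapped through the sheared FH preparation and the difference of -0.91 ± 0.35 did not pass the test (limma adjusted p = 0.057), but it did without that preparation (-1.23, adjusted p = 0.018), without CCE2 hydrolysed (-1.09, adjusted p = 0.037), with a fragmentation term and in 7 of 23 alternatives in all. Plxnb2, a receptor of class 4 semaphorins, had 15.7 to 31.9 RPKM in CCE and 12.5 to 26.0 RPKM in FH (adjusted p = 0.45). Plxna2, Plxna3, Plxna4, Plxnc1 and Plxnd1 rose by 1.81 to 2.99, and Plxna4, a receptor of Sema3a and Sema6 proteins in neurons, did so with little spread, from 1.20 ± 0.33 (SD, n = 4) to 16.3 ± 0.95 RPKM (SD, n = 3). Plxnd1, a plexin of endothelial cells and neurons, had 51.3 RPKM in the sheared and 16.4 and 20.4 RPKM in the hydrolysed FH preparations. Plxna1 held 51.9% ± 3.1 (SD, n = 4) of the plexin RPKM in CCE and 18.1% ± 1.7 (SD, n = 3) in FH. The Ribo-Zero shares of Plxna1 were 33.4% and 17.8%, and there Plxnb2 was the largest plexin in both tissues, with 42.0% and 22.5%.

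The 2 neuropilins, co-receptors for class 3 semaphorins and for VEGF, changed in opposite directions in the RiboMinus preparations. Nrp1 had 37.1, 33.4, 36.5 and 28.3 RPKM in CCE and 18.8, 14.1 and 18.7 RPKM in FH (log2 difference -0.94 ± 0.19, limma adjusted p = 0.0026), a fall that passed the test in all alternatives. Nrp2 had 5.95, 3.35, 6.06 and 6.26 RPKM in CCE and 20.9, 18.2 and 22.0 RPKM in FH (1.76 ± 0.22, limma adjusted p = 0.00019). The groups did not overlap in either gene. The Ribo-Zero libraries gave the same direction for Nrp2, with a ratio of 3.09 (2.93 to 3.25), and the opposite one for Nrp1, with 10.8 RPKM in CCE and 20.4 RPKM in FH, a ratio of 1.89 (1.80 to 2.00). The Nrp1 level of FH was close in both kits, at 17.2 ± 2.7 and 20.4 RPKM, and that of CCE was 33.8 ± 4.0 RPKM against 10.8 RPKM. RNA source, depletion kit, tag length and sequencing location differ together between these data sets and cannot be told apart.

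Among Slit receptors Robo1, the one of highest level in both tissues, did not differ beyond its spread, with 16.9 to 24.7 RPKM in CCE and 20.0 to 26.8 RPKM in FH (log2 difference 0.17 ± 0.19, limma adjusted p = 0.50). Robo2, which acts with Robo1 in many axon tracts, had 1.61, 0.912, 1.64 and 0.918 RPKM in CCE and 9.60, 5.74 and 8.88 RPKM in FH (1.99 ± 0.22, limma adjusted p = 9.9e-05). Within each tissue the sheared preparations read lower for Robo2 than the hydrolysed ones. Robo3, which commissural axons need to cross the midline, and the endothelial Robo4 rose by 2.01 and 2.04 from under 0.5 RPKM in all CCE preparations. Slit3 and Slit2 had 3.86 to 10.7 RPKM and 2.49 to 4.68 RPKM in CCE and 6.70 to 9.42 RPKM and 2.77 to 3.82 RPKM in FH, and neither passed the test (adjusted p = 0.28 and 0.90). Slit3 did so without CCE2 sheared, its highest CCE value (0.69, adjusted p = 0.018). Slit1, the Slit most restricted to the nervous system, rose from 0.218 ± 0.10 to 6.13 ± 2.3 RPKM (log2 difference 2.51). In the Ribo-Zero libraries Slit1 and Robo2 had ratios of 7.87 (6.56 to 9.51) and 4.96 (4.67 to 5.26), and Robo1 had 17.1 and 16.0 RPKM. Slit3 and Slit2 were higher in FH there, with ratios of 2.14 (1.90 to 2.41) and 1.51 (1.42 to 1.60).

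**Figure D3:**
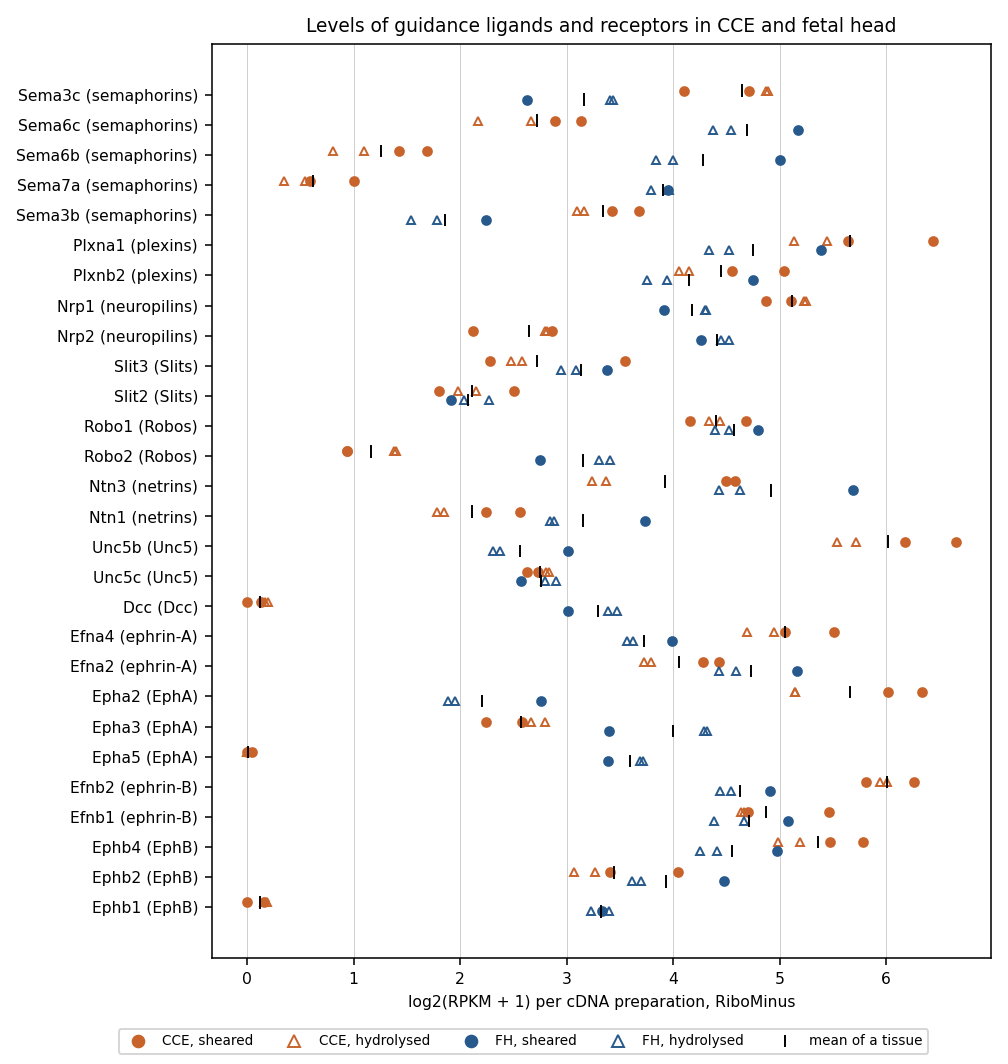
Levels of 28 guidance genes, the 2 of highest mean in each class and the largest rises and falls, as log2(RPKM + 1) in each of 4 CCE and 3 FH RiboMinus preparations, with black bars at the tissue means. Unc5b and Epha2 are high in every CCE preparation, while Dcc, Epha5 and Ephb1 lie near 0 in all of them.

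Intron tags are those inside the span of a gene and outside all annotated exons. They are not among the tags counted in exons, although they come from the same libraries. Without strand, unspliced RNA of the gene and other transcripts across it cannot be told apart in these tags. They were enough to test 55 of the 69 members, with limma voom for genes with at least 70 intron tags. Of these 41 (74.5%) were higher and 2 (3.64%) lower in FH, where 35.9% of all 9691 genes tested were higher and 4.08% lower. The median log2 difference was 1.89 for the members and 0.64 for all genes. The 2 lower genes were Unc5b (-2.93 ± 0.35, 1539 tags in CCE and 145 in FH) and Epha2 (-2.33 ± 0.34, 470 and 71 tags), the genes with the largest falls in exons. Of these 55 members 20 reached the minimum only with the tags of FH added, a selection that favours a rise. Of the 35 with at least 70 intron tags in CCE alone, a limit set after the values were seen, 23 (65.7%) were higher and 2 lower, against 28.1% and 5.46% of the 6683 such genes. The 26 members with a rise in exons and enough intron tags were also higher in introns, as were 89.6% of all such genes, and only 10 of the 26 had the minimum in CCE alone. Epha5 (9.34, 3 and 1832 tags) and Dcc (8.74, 21 and 7880 tags) had the largest intron differences and were among those that reached it through FH. Of the 10 members with a fall in exons and enough intron tags 2 were lower in introns and 7 did not pass the intron test. Among the 7 were Nrp1 (0.99, adjusted p = 0.062), Efnb2 (0.13, adjusted p = 0.79) and Sema3c (-0.04, adjusted p = 0.94). Sema4b was higher (0.83, adjusted p = 0.0498). Of all 2861 such genes 12.2% were lower and 4.37% higher in introns, so that most of them did not pass either.

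Of 17 members without an exon call and with enough intron tags 12 were higher in introns and none lower, where 33.2% of all genes without an exon call were higher. With the minimum in CCE alone 11 of 15 were higher, against 33.4% of the 3325 such genes. They included Unc5c (2.48, 682 and 2941 tags), Slit2 (1.89, 831 and 2402 tags) and Robo1 (1.83, 1509 and 4135 tags), which did not pass the exon test, and Sema3a (2.51), beside a median of 0.64 for all genes. Leaving out the first 20 kb of each gene, 42 members had enough intron tags, of which 33 were higher and 2 lower, against 49.3% and 2.32% of the 5177 genes tested. The lower exon share of FH libraries moves with these values and its part in them was not tested.

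**Figure D4:**
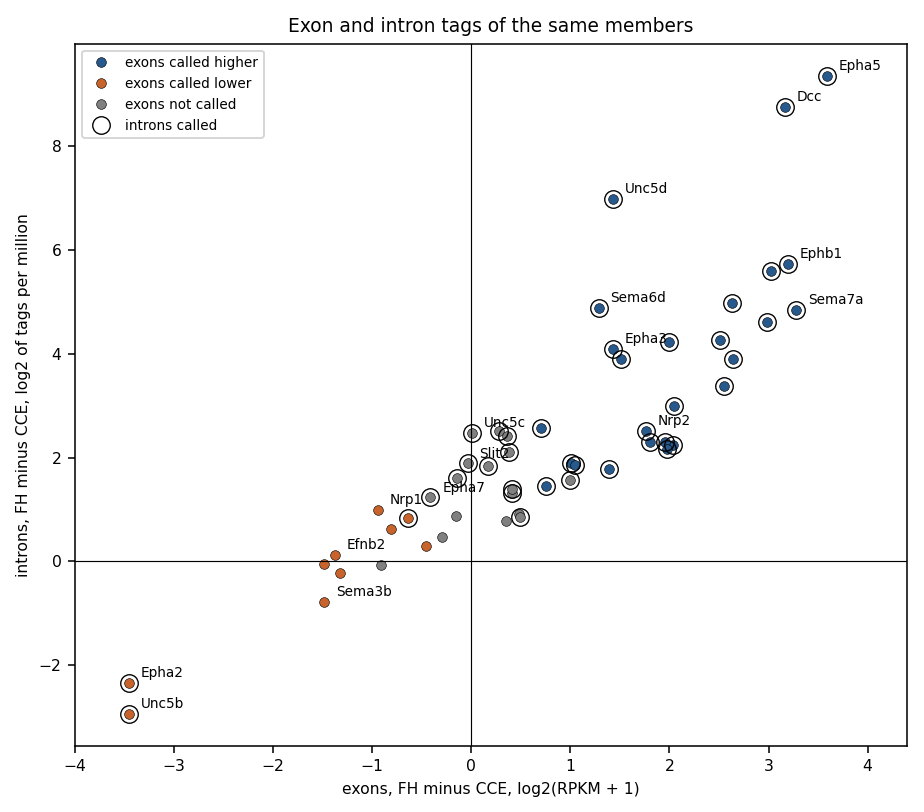
Log2 difference between fetal head and CCE in exons (horizontal) and introns (vertical) for members tested in both, coloured by the exon call and ringed where introns passed the test. Unc5b and Epha2 lie alone at the lower left at -3.46 in exons, and the grey points of Unc5c and Slit2 lie near 0 in exons and near 2 in introns.

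The Ribo-Zero libraries, with 1 library per tissue and therefore no test between tissues, were set beside these values. Of 59 members with a mean of at least 1 RPKM 22 (37.3%) were higher in FH past 2-fold of RPKM + 1 and 4 (6.78%) lower, against 11.3% and 22.7% of all 12314 genes. The 4 were Unc5b, Epha2, Efna3 and Efna4. The limit of 1 RPKM can be passed through FH alone here as well, as by Unc5d with 0.0818 RPKM in CCE and 2.86 RPKM in FH. The median log2 difference was 0.67 for the members and -0.45 for all genes. Of the 35 members higher in RiboMinus 33 had the same sign in Ribo-Zero, and 22 passed both the limit of 1 RPKM and 2-fold there. Epha6, Epha8 and Unc5a were also past 2-fold (log2 differences 1.13, 1.32 and 1.004) but had a Ribo-Zero mean under 1 RPKM. The exceptions in sign were Sema4g, with a ratio of 0.862 (0.766 to 0.972), and Ntn5. Of the 11 lower members 10 had the same sign and 4 passed 2-fold, and the exception was Nrp1. The shares of all called genes that kept their sign or passed 2-fold are not given. These counts of agreement therefore cannot be read as a trait of the members.

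Other genes of the pathways were counted in the same fit. In it 20.6% of all genes tested were higher and 30.3% lower in FH, with a median log2 difference of -0.24. Of 21 tested cell surface partners and other guidance cues 18 were higher and 1 lower in FH, with a median log2 difference of 1.77. Reln, the secreted protein of early cortical neurons, had 0.112 and 8.07 RPKM on average, the adhesion molecule Chl1 0.0172 and 18.1 RPKM, and Neo1, a Dcc relative that binds netrins and Rgm proteins, 17.6 and 21.5 RPKM without a call (adjusted p = 0.29). Flrt3, a ligand of Unc5 receptors, was the gene that fell, from 26.7 to 10.8 RPKM. Of 42 tested cytoplasmic effectors 13 were higher, 6 lower and 23 not called, with a median of 0.08. The collapsin response mediators Crmp1, Dpysl2, Dpysl3, Dpysl4 and Dpysl5 all rose (1.72 to 4.14), as did Cdk5r1, the neuronal activator of Cdk5 (4.12). The 6 that fell were Limk2, a kinase of cofilin, from 57.4 to 14.8 RPKM (-1.89), Abl2 (-1.19), Vasp (-1.09), Mical2 (-0.71), Mical1 (-0.60) and Ptk2 (-0.43). In Ribo-Zero Limk2, Abl2 and Vasp were also lower (-1.12, -0.93 and -1.46), while Mical2, Mical1 and Ptk2 hardly differed (0.04, -0.03 and 0.01). Rac1, Cdc42 and Rhoa, the small GTPases on which these receptors act in all cells, did not pass the test. In Ribo-Zero Rhoa had 13.4 RPKM in CCE and 5.24 RPKM in FH, and Rac1 and Cdc42 had log2 differences of -0.34 and -0.52.

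The members are longer than most genes, which the choice by name did not use. Their median span was 46.3 kb and their median exon length 6067 bases, against 22.3 kb and 3649 bases for all genes tested, and spans ran from 4.64 kb for Efna4 to 1092 kb for Dcc. In build mm9 Unc5b lies at chr10:60225358-60294329, Epha2 at chr4:140857155-140885299, Epha5 at chr5:84486816-84846407 and Nrp1 at chr8:130882973-131029362. For 16 members some exon bases also belong to another gene, and with these bases left out the counts of higher and lower members were again 35 and 11. The shares of all genes called in that fit are not given.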

How the data were processed

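Tags were read from 16 processed files, 14 RiboMinus and 2 Ribo-Zero libraries. The 6 extra lanes and 2 combined samples were not analysed here. The authors removed ribosomal tags, and mitochondrial tags for RiboMinus, aligned the rest with Bowtie to mm9 without splice junctions and deposited each tag with 1 place in the genome as a line with its start and end. The files hold positions and no expression values.

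Tag midpoints were counted here in merged exons and introns of GENCODE M1 genes, whose build is that of the files, and scaled to RPKM by all unique tags of a library. The tags of both locations were summed per cDNA preparation. Tissues were compared with limma 3.58.1 (trended variance) on log2(RPKM + 1) for genes with a mean over the tissue means of at least 1 RPKM, introns with limma voom, and p-values were adjusted over all genes tested. The fits were first tested on simulated data. Ribo-Zero ratios have exact intervals at 95% from tag counts. They cover counting error only, since tags may be copies of 1 molecule. Preparations that could be 1 library were looked for: the hydrolysed pairs, summed by their labels, varied 1.58 (CCE) and 1.52 (FH) times as much as counting error, the sheared CCE pair 9.96 times and pairs across fragmentation methods 12.3 to 21.1 times.

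The members, gene lists and tests were chosen with earlier results of these data known. Genes named were the 2 of highest mean level in each class and the 5 largest rises and falls without overlap, and other members were named after their values were seen. Alternatives covered scaling, filters, pseudocount, fragmentation, location, crossed preparation numbers, each preparation left out, duplicate positions, coding parts and a replicate block. Promoter windows are RefSeq sequences of GRCm38.p6. Python 3.11.15, pandas 2.3.3, scipy 1.17.1 and R 4.3.3 were used.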

Additional observations from a re-analysis of the deposited data

Results flagged for a closer look

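The Ribo-Zero ratio of FH to CCE went against the RiboMinus preparations for 2 called members with an interval that left out 1, which was not tested. For Ntn5, called higher, the ratio was also below 1, at 0.903, but its interval of 0.505 to 1.65 included 1. Nrp1 had a ratio of 1.89 (1.80 to 2.00) in Ribo-Zero, where every FH RiboMinus preparation lay below every CCE preparation. Sema4g had a ratio of 0.862 (0.766 to 0.972), where every FH RiboMinus preparation lay above every CCE preparation. The Ribo-Zero ratios are scaled by all unique tags, of which exons took 60.8% in CCE and 42.5% in FH. Scaling by exon tags would raise every such ratio, and ratios on that scale are not given here. Ratios near 1, such as that of Sema4g, therefore depend on the scaling.

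For 6 of 64 tested members 1 of the 4 CCE preparations stood far from the other 3 by Dixon's gap. Of sets of 4 values drawn from 1 normal distribution about 1 in 20 pass this limit. The preparations mix sheared and hydrolysed material, so that this rate need not hold for them, and the share over all genes is not given. In sheared CCE1 Epha5 had 0.0334 RPKM, a single tag, against 0 in the others. Ephb1 had 0 RPKM there against 0.114 to 0.137, with 8 tags in all CCE preparations together. Nrp2 had 3.35 RPKM there against 5.95 to 6.26. In sheared CCE2 Slit3 had 10.7 RPKM against 3.86 to 4.99, and Efnb1 had 43.2 RPKM against 23.8 to 25.1. Sema3d had 1.41 RPKM in hydrolysed CCE1 against 0.531 to 0.600 in the others. The first 5 of these concern sheared preparations.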

How the results depend on the processing

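Of the 46 calls among members 38 were the same in every alternative with a value, 31 of 35 higher and 7 of 11 lower, and no called member changed direction. The others were Epha1, lost whichever preparation was left out (adjusted p 0.051 to 0.11) and in 9 other alternatives; Ephb6, lost without CCE1 hydrolysed, CCE1 sheared, CCE2 hydrolysed, FH1 sheared or FH2 hydrolysed (0.078 to 0.15); Ephb4; Sema4b, lost without CCE1 hydrolysed, FH1 hydrolysed or FH2 hydrolysed (0.063 to 0.10); Efna3, lost without FH2 hydrolysed (0.059) and in 3 other alternatives; Ntn1 and Ntn5, lost with Nijmegen libraries alone, and Ntn1 with coding parts alone; and Ntn4, lost with the libraries of either location alone and with coding parts alone. Of the 18 uncalled members 9 passed in at least 1 alternative: Efna2 in 8 of 23, among them without CCE1 sheared (0.039), Plxna1 in 7 and Ntn3 in 6, among them without CCE2 sheared (0.046), Ephb2 and Sema4c in 3, Epha7, Plxnb1 and Slit3 in 2, and Robo1 when scaled by exon tags (0.0496). Of these, 7 passed with a fragmentation term, which gave 40 higher and 13 lower members: Efna2, Ntn3, Ephb2, Plxnb1 and Sema4c as higher, Plxna1 and Epha7 as lower. Leaving out each preparation gave 33 to 37 higher and 7 to 11 lower members, 7 without FH2 hydrolysed, and a median of 0.76 to 1.22, the lowest without FH1 sheared. The shares of all genes called in these fits are not given. Scaled by exon tags 7 members were lower and the median was 1.34, and with median-of-ratios factors 7 were lower. The cause was not tested. The intron minimum in CCE alone was added after the data were seen. It left 35 members, of which 23 (65.7%) were higher, against 74.5% of the 55 with tags of both tissues.

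Of the surface partners 0 were lower when scaled by exon tags and with Nijmegen libraries alone, 2 with a fragmentation term, with hydrolysed preparations alone, with repeated positions counted once and with libraries as units, and 1 to 2 with a preparation left out. Of the Slitrk genes 5 instead of 3 were higher when scaled by exon tags, with median-of-ratios factors and with hydrolysed preparations alone, and 3 to 5 with a preparation left out. The main fit tested only 4 of them, so that the settings with 5 higher tested more. Slitrk3, not tested in the main fit, had no CCE RiboMinus tag and a mean of 1.87 RPKM in FH, and could enter only through FH. Of all genes 25.8% instead of 20.6% were higher with hydrolysed preparations alone. Of the effectors 13 instead of 6 were lower with a fragmentation term, 12 with hydrolysed preparations alone, 3 with Nijmegen libraries alone and 4 to 7 with a preparation left out. Of all genes tested 43.7% were lower with that term and 44.8% with hydrolysed preparations alone, instead of 30.3%. For the remaining settings of these lists the shares of all genes called are not given.

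The library numbers of the labels as a replicate block gave 35 higher and 12 lower members and 2 lower surface partners. The numbers did not pair the libraries, since their deviations correlated from -0.57 to 0.46. Numbers of hydrolysed preparations may be crossed between the locations, and crossed at Nijmegen they gave 34 and 10. The shares of all genes called with the block or the crossed numbers are not given. Among the members left out by the filter, Epha10 and Plxnb3 rested on 11 and 1 RiboMinus tags in CCE and 74 and 37 in FH.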

Other observations

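The 5 guidance genes under the limit of 1 RPKM were Sema3e, Sema3g, Sema4d, Plxnb3 and Epha10. Sema3g, a semaphorin of vessels, had no tag in the 4 CCE preparations and 0.712, 0.765 and 0.933 RPKM in FH (35 tags), and 7 and 329 tags in the Ribo-Zero libraries, a ratio of 27.9 (13.4 to 69.8). Plxnb3 had 0.0114 RPKM on average in CCE and 0.614 ± 0.18 RPKM in FH. Sema3e, the ligand of Plxnd1, lay lower in every FH preparation (0.349 to 0.519 RPKM) than in every CCE preparation (0.618 to 1.21 RPKM), with a Ribo-Zero ratio of 0.563 (0.498 to 0.637).

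Of the Slitrk genes, neuronal membrane proteins left out by name, 3 of 4 tested were higher in FH and none lower, against 20.6% and 30.3% of all genes tested. Slitrk1 had no tag in the CCE RiboMinus preparations and a mean of 7.91 RPKM in FH, and Slitrk5 had 0.941 and 7.94 RPKM. Slitrk2 did not pass the test (0.77, adjusted p = 0.069). Of the entries set apart, Unc50 had 26.5 ± 5.6 RPKM in CCE and 20.3 ± 6.3 RPKM in FH without a call, and Unc5cl was under the limit.

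Sheared and hydrolysed preparations of the same tissue differed in the levels of many members. Of 66 members with a mean of at least 1 RPKM in FH the sheared preparation gave the highest of the 3 FH values for 43 and the lowest for 17. These counts rest on 1 sheared FH preparation, that of fewest tags (1888761). The share over all genes is not given, so the counts cannot be read as a trait of the members.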
